A study of Mus musculus with 10 samples.

Results

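Glycolysis splits glucose into pyruvate in the cytosol, and lactate dehydrogenase turns pyruvate into lactate, which leaves the cell through monocarboxylate transporters. When oxygen is scarce, the alpha subunit of hypoxia-inducible factor (HIF) escapes the prolyl hydroxylases that mark it for destruction and turns on genes of glucose uptake, glycolysis, mitophagy and blood vessel growth. Myeloid cells also stabilize HIF-1α after inflammatory signals, and a high glycolytic rate is a known feature of activated macrophages.

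The genes described are 35 genes of glycolysis and the hypoxia response, of 55487 genes in the deposited count table, taken by gene name. They comprise 16 glycolytic enzymes, 4 glucose and lactate transporters, 3 regulators of glycolytic flux, 2 HIF alpha subunits, 2 HIF prolyl hydroxylases and 8 other HIF targets, and the glycolytic enzymes are described apart from the other HIF targets. They were compared between ARG1+ and ARG1- cells of the inflamed spinal cord. The cells came from 5 male *Arg1*-eYFP reporter mice (*Arg1*tm1Lky in the labels, B6.129S4-*Arg1*tm1.1Lky/J in the study's methods) on a C57BL/6 background, in which a yellow fluorescent protein marks the cells that express the arginine-consuming enzyme arginase 1. All animals were at the peak of experimental autoimmune encephalomyelitis (EAE), a model of multiple sclerosis, so both groups carried the reporter and the disease, and no healthy or untreated group was part of the comparison. From each spinal cord, viable CD45+CX3CR1+ cells that lacked CD3 and Ly6G were sorted into 200000 YFP+ (ARG1+) and 100000 YFP- (ARG1-) cells, which gave 1 library each. The gate does not separate infiltrating monocyte-derived cells from microglia or border-associated macrophages, and in bulk libraries fewer cells of a type and less RNA per cell cannot be told apart. The animals were 8 to 12 weeks old.

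The 10 libraries (5 ARG1+ and 5 ARG1-, paired by animal as m2, m6, m234, m235 and m236) held 28870482 to 33826355 counts in ARG1+ cells and 8396863 to 35455643 in ARG1- cells. The shallow library was ARG1- m234, and the next lowest ARG1- total was 28212174. *Arg1* itself was at 588 to 1049 CPM (read counts relative to the TMM-corrected size of the library) in ARG1+ and 14.3 to 27.0 CPM in ARG1- libraries, with a log2 fold change of 5.45 ± 0.213 (SE) and a false discovery rate (FDR) of 1.07e-07. The FDR is the Benjamini-Hochberg adjusted p of edgeR's quasi-likelihood test over the 13740 genes with more than 1 CPM in at least 3 libraries. Differences below are log2 fold changes of ARG1+ over ARG1- cells, levels are CPM, and levels of different genes are compared as CPM per kb of exon.

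ARG1- m234 also stood apart in marker genes. The summed level of 8 microglial markers was 1481 CPM in that library and 217 to 606 CPM in the other ARG1- libraries, beside 158 to 349 CPM in ARG1+ libraries. With the animal as a block 7 of these 8 markers were lower in ARG1+ cells, and without it the lowest FDR was 0.0795. Of 9 dendritic cell markers, 7 were tested and 5 were lower in ARG1+ cells, with sums of 13.3 to 29.1 CPM in ARG1+ and 31.3 to 67.0 CPM in ARG1- libraries. Of 7 monocyte markers 4 were lower, although the sums overlapped (2599 to 9102 against 2658 to 7865 CPM). With the block 5 monocyte markers were lower and 2, *F13a1* and *Chil3*, were higher, both in all 5 animals. Of 6 markers of border-associated macrophages only *Mrc1* and *Pf4* passed the filter on low counts, both were higher in ARG1+ cells, and the defining markers *Lyve1*, *Cd163* and *Folr2* stayed at or below 0.278 CPM. The sorted cells carried *Ptprc*, *Csf1r* and *Lyz2* in all libraries. *Cx3cr1* was at 43.9 to 233 CPM in ARG1+ and 102 to 565 CPM in ARG1- libraries (log2 fold change -1.01, FDR = 0.153). *Itgam* and *Lyz2* were higher in ARG1+ cells. With the block *Adgre1* was also higher, while *Cx3cr1* (FDR = 9.24e-05), *Ptprc* (0.00192) and *Csf1r* (0.0153) were lower, each of the 3 in all 5 animals. For neutrophils, 1 of 3 tested markers was lower, *S100a9*. With the block *S100a9* was lower, while *Mmp8* (FDR = 4.23e-05) and *S100a8* (0.0154) were higher, both in all 5 animals. The summed level of all 8 neutrophil markers was 131 to 321 CPM in ARG1+ and 65.8 to 186 CPM in ARG1- libraries, and it was higher in ARG1+ cells in all 5 animals. For T cells the sum of 7 markers stayed between 1.07 and 3.36 CPM, and for B and plasma cells, where *Jchain* was lower, the sum of 6 was at 1.94 to 4.28 CPM in ARG1+ and 4.35 to 10.8 CPM in ARG1- libraries. Of 4 endothelial markers tested 2 were lower and of 4 astrocyte markers 1 was higher. Sums for endothelial cells were 71.1 to 130 and 115 to 154 CPM, for oligodendrocytes 116 to 151 and 103 to 152 CPM, for astrocytes 5.67 to 10.8 and 7.55 to 20.1 CPM, and for erythroid cells 5.46 to 11.1 and 4.72 to 22.1 CPM. Of 8 immediate early genes, which dissociation can induce, 2 were higher in ARG1+ cells and none was lower. With the block 4 were higher and 2 lower, *Atf3* (FDR = 7.37e-04) and *Ier2* (0.0135), both lower in all 5 animals. The sum of all 8 was 4968 to 6211 against 4349 to 5440 CPM. The part of these marker differences in the results below was not tested.

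The promoters of 4 members whose levels differed between the sorts are shown first, as examples of windows with the letters to which HIF binds. Most other members with a window held such letters too, called or not, as given below. *Egln3* encodes a prolyl hydroxylase that is itself a HIF target, *Bnip3* a mitophagy receptor, and *Pfkl* and *Pfkp* are isozymes of phosphofructokinase that moved in opposite directions. Each run is the 250 bases before the transcription start in the RefSeq annotation of GRCm38.p6, read 5′ to 3′ on the gene's strand. Capitals mark the HIF core ACGTG or GCGTG and its reverse complements CACGT and CACGC, where matches that overlap share their letters. The windows are chr12:54203875-54204124 for *Egln3*, chr7:138909507-138909756 for *Bnip3*, chr10:78009808-78010057 for *Pfkl* and chr13:6648772-6649021 for *Pfkp*, all on the minus strand.
Egln3: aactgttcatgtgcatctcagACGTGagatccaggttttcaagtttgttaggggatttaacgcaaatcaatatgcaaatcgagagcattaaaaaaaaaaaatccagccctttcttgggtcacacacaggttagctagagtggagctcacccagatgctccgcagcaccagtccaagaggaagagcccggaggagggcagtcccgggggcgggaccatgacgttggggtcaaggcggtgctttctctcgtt
Bnip3: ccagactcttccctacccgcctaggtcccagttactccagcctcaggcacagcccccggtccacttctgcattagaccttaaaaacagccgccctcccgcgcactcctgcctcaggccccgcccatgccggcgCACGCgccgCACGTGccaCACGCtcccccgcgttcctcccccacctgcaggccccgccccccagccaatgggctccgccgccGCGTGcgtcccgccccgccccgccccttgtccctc
Pfkl: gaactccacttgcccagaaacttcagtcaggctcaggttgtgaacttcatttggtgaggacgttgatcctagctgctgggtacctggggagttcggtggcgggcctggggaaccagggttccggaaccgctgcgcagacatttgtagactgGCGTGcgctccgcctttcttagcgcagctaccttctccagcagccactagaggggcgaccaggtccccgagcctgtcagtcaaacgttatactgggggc
Pfkp: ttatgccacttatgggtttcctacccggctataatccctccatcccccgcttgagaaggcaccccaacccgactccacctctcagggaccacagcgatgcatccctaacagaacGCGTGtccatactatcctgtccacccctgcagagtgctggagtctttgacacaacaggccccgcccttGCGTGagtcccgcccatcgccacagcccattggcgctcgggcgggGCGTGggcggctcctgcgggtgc

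*Bnip3* held 5 matches, of which 2 overlap as CACGTG, at positions -117, -108, -107, -99 and -35 counted to the first base of the match from the start site. *Pfkp* held 3 at -136, -68 and -23, *Pfkl* 1 at -99 and *Egln3* 1 at -229. RefSeq windows matched 31 of the 35 members, and *Bnip3l*, *Ndrg1*, *Epas1* and *Slc2a3* had none in the table used. Of these 31 genes, 29 (93.5%) held at least 1 match in 1 of their windows, beside 41.5% of all 27025 genes in the table. By window the shares were 80.9% of 47 and 38.6% of 32851. The exceptions were *Tpi1* and *Gpi1*. The motif was found in 22 of 24 matched members that did not pass the test between ARG1+ and ARG1- cells, and in 5 of 5 that were higher. The motif holds a CG pair, and the median GC content of the windows was 60.4% in members and 52.4% over all windows. A match is a description of the sequence, not a binding site.

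Of the 35 members, 34 passed the filter on low counts, and *Adm*, which encodes the vasodilator adrenomedullin, stayed at or below 0.356 CPM in all libraries. Of the 34, 6 were higher and 2 were lower in ARG1+ cells at an FDR below 0.05, beside 6.82% higher and 6.15% lower among all genes tested. The higher members were the enzymes *Pfkl* and *Aldoc*, the hydroxylase *Egln3* and the HIF targets *Vegfa*, *Bnip3* and *Bnip3l*, and the lower ones were the enzyme *Pfkp* and the glucose transporter *Slc2a3*. All changes but that of *Slc2a3* were smaller than 1 log2 unit, so 1 of 34 members passed both limits of the study, beside 1.45% of all genes. With the animal as a block, 11 members were higher and 5 lower, where 16.8% and 18.3% of all genes were called. In 6 members all 5 ARG1+ libraries lay above all 5 ARG1- libraries (6.15% of all genes), and in 1 they lay below (5.2% of all genes). The median log2 fold change was 0.12 over the 34 members and -0.0022 over all genes tested.

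**Figure D1:**
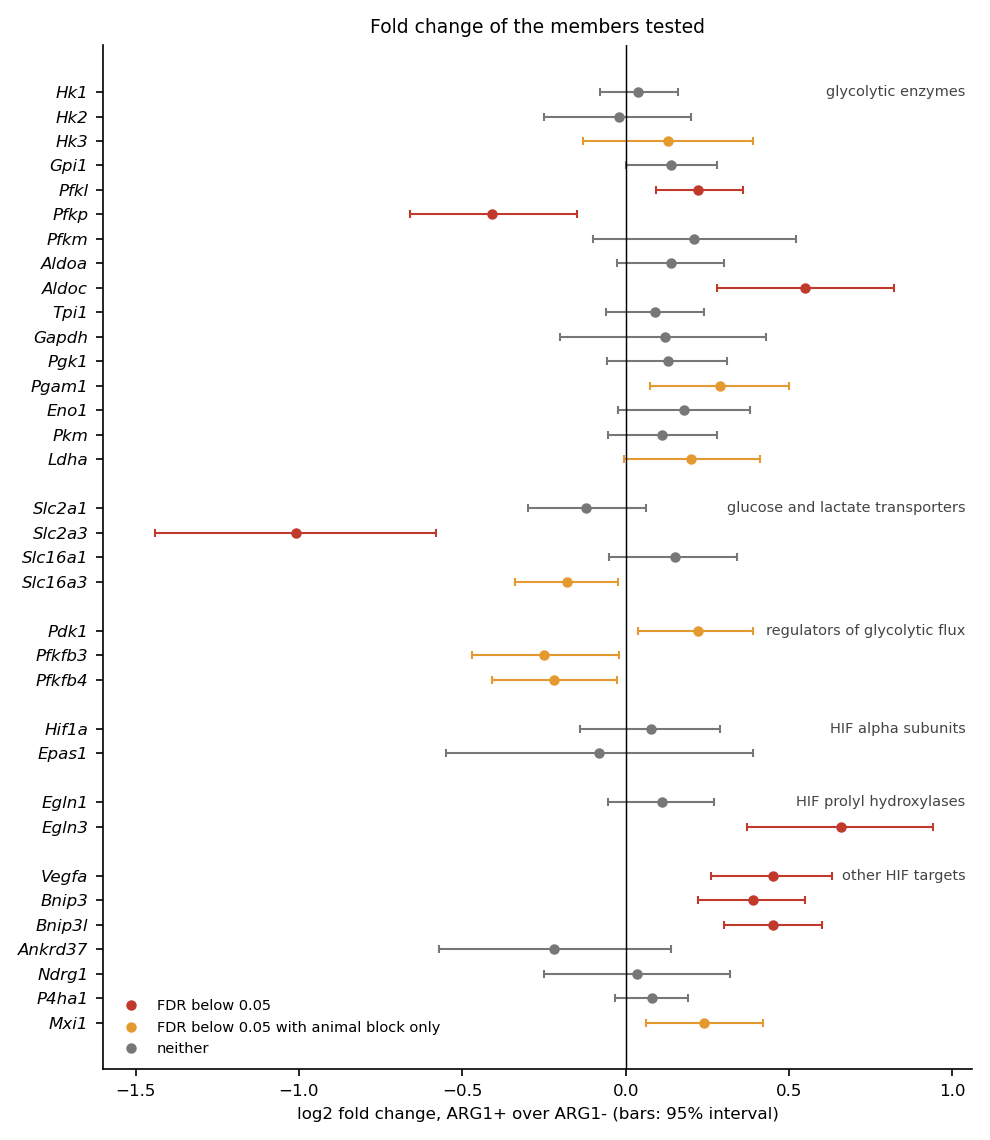
Log2 fold change of ARG1+ over ARG1- cells with its 95% interval for the 34 members tested, grouped by role; red marks an FDR below 0.05, orange an FDR below 0.05 with the animal block alone, and gray neither. *Egln3* lies farthest to the right at 0.66 and *Slc2a3* farthest to the left at -1.01, and the interval of most glycolytic enzymes includes 0.

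Among the glycolytic enzymes, 2 of 16 were higher (*Pfkl* and *Aldoc*), 1 was lower (*Pfkp*) and 13 did not pass the test. Among all genes tested 6.82% were higher and 6.15% lower. The estimates of the enzymes were nonetheless mostly on 1 side, with 14 of 16 (87.5%) above 0 and a median of 0.13. Of all genes tested 49.6% were above 0. The largest interval bound among the 8 most abundant enzymes, per kb *Pkm*, *Aldoa*, *Ldha*, *Tpi1*, *Eno1*, *Pgk1*, *Gpi1* and *Hk3*, was 0.41, in *Ldha*. The summed level of the 16 enzymes was 10069 to 11401 CPM in ARG1+ and 8929 to 11122 CPM in ARG1- libraries, and it was higher in ARG1+ cells in 4 of 5 animals. *Gapdh* enters this sum and the counts above with its own row of 4.32 to 6.9 CPM, without its copies, as described below.

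The pathway starts with hexokinases, which trap glucose as glucose-6-phosphate. *Hk3* was the leading hexokinase per length, with 63.3% ± 2.86 (SD, n = 5) of the summed CPM per kb of *Hk1*, *Hk2* and *Hk3* in ARG1+ and 61.1% ± 2.24 in ARG1- cells. Its levels in m2, m6, m234, m235 and m236 were 430, 509, 521, 603 and 444 CPM in ARG1+ libraries. In the ARG1- libraries they were, in the same order, 389, 487, 427, 577 and 416 CPM. The groups overlapped, yet each animal was higher in its ARG1+ library, and the log2 fold change of 0.13 (95% interval -0.13 to 0.39) had an FDR of 0.509, or 0.0364 with the animal block. The block call was lost in each of the 5 fits without 1 animal, at an FDR of at most 0.116. *Hk1* (121 to 138 against 118 to 129 CPM) and *Hk2* (286 to 406 against 282 to 389 CPM) did not pass the test in either fit, with intervals of -0.078 to 0.16 and -0.25 to 0.20.

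Phosphofructokinase makes the committed step of glycolysis, and its isozymes moved apart. *Pfkl*, the liver type (chr10:77986947-78010083), was at 461, 439, 436, 422 and 455 CPM in the ARG1+ libraries of m2, m6, m234, m235 and m236. The ARG1- libraries had 373, 383, 340, 383 and 417 CPM, so the lowest ARG1+ library (422) lay just above the highest ARG1- library (417). The log2 fold change was 0.22 ± 0.0604 (FDR = 0.0316). *Pfkp*, the platelet type (chr13:6579768-6648777), was at 263, 228, 333, 265 and 206 CPM in ARG1+ libraries and at 334, 325, 359, 389 and 309 CPM in ARG1- libraries. Here the groups overlapped through ARG1+ m234, while all 5 animals were lower in ARG1+ cells, and the log2 fold change was -0.41 ± 0.116 (FDR = 0.0392). With the block the FDR was 0.00318 for *Pfkl* and 8.2e-04 for *Pfkp*. The muscle type *Pfkm* stayed at 5.54 to 10.5 CPM (log2 fold change 0.21, FDR = 0.344). In the summed CPM per kb of the family, *Pfkl* held 65.4% ± 4.25 in ARG1+ and 55.2% ± 3.39 in ARG1- cells, and *Pfkp* 32.9% ± 4.39 and 43.4% ± 3.48 (SD, n = 5). The share of *Pfkl* was higher and that of *Pfkp* lower in all 5 animals, although the ranges met, with *Pfkp* at 27.6 to 39.2% in ARG1+ and 38.5 to 47.0% in ARG1- libraries.

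The phosphofructokinase calls of the fit without a block depended on single libraries. The FDR of *Pfkl* was 0.0701 without ARG1- m2, 0.063 without ARG1- m6, 0.0791 without ARG1+ m2, 0.0637 without ARG1+ m6 and 0.0658 without ARG1+ m236. Without both libraries of 1 animal it was 0.15 (m2), 0.117 (m6), 0.0518 (m234) and 0.0508 (m235), with total counts in place of TMM 0.0642 and with no filter on low counts 0.0631. *Pfkp* passed in 3 of the 15 fits that left out a library or an animal (ARG1- m236, ARG1+ m234 or both libraries of m234), and its FDR reached 0.137 without m6, while its log2 fold change stayed between -0.51 and -0.33. In the blocked fit both calls held without each animal in turn, an alternative chosen after seeing the data, with an FDR of at most 0.0236 for *Pfkl* and 0.00684 for *Pfkp*. On the opposite strand *Pitrm1* overlaps 17.4% of the exon bases of *Pfkp*, and the sources used here do not say if reads were counted by strand.

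**Figure D2:**
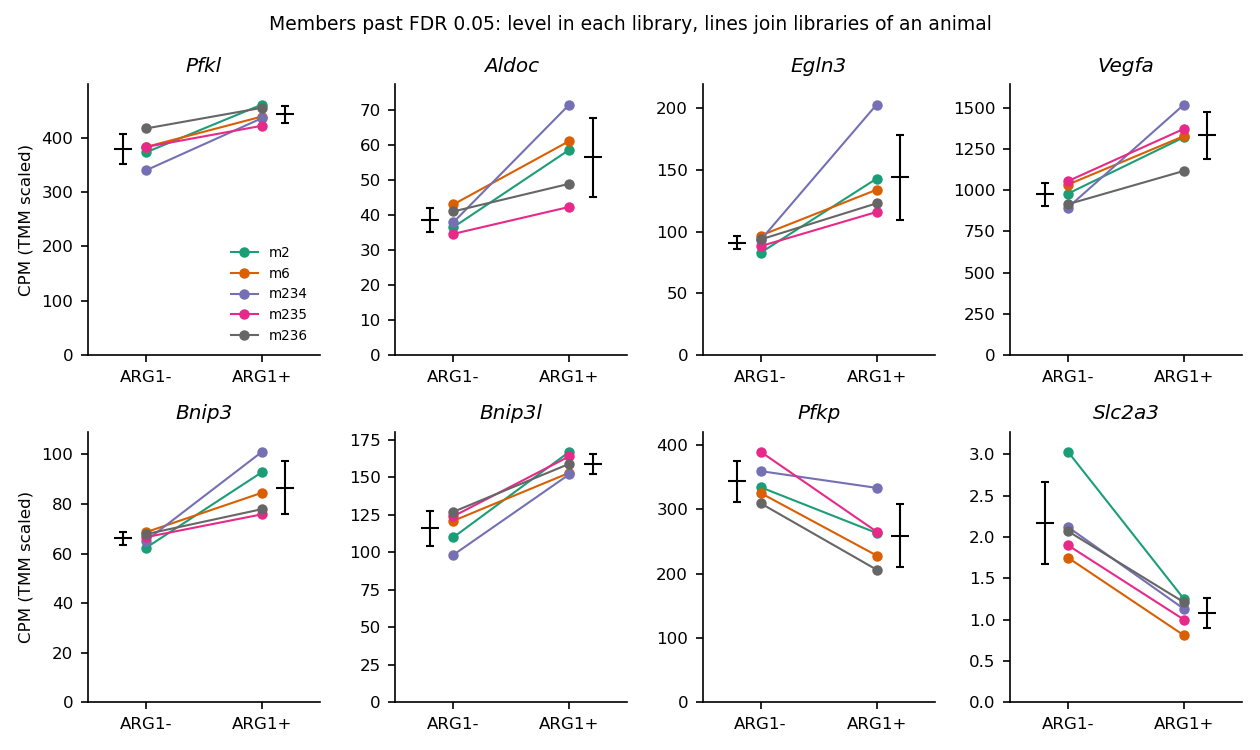
Level in CPM of the 8 members past an FDR of 0.05 in each library, with lines that join the ARG1- and ARG1+ libraries of an animal and black bars for the mean ± SD of 5 libraries. *Pfkl* to *Bnip3l* were higher in ARG1+ cells in all 5 animals and *Pfkp* and *Slc2a3* were lower in all 5, and the steepest line of *Aldoc*, *Egln3* and *Vegfa* is that of m234.

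Aldolase splits the 6-carbon sugar phosphate, and 98.1% ± 0.298 of the aldolase CPM per kb in ARG1+ and 98.6% ± 0.17 in ARG1- cells was *Aldoa*. The minor form *Aldoc* (chr11:78322968-78327781), known from brain, was at 58.6, 61.1, 71.5, 42.3 and 48.9 CPM in the ARG1+ libraries of m2, m6, m234, m235 and m236 and at 36.5, 43.0, 37.9, 34.6 and 41.0 CPM in the ARG1- libraries. Only ARG1+ m235 lay within the ARG1- range. The log2 fold change was 0.55 ± 0.124 (FDR = 0.015), and the FDR was 0.0852 without m2 and 0.0609 without m6. *Aldoc* was higher by 0.25 to 0.91 on the log2 scale in the single animals. *Aldoa* itself was at 1723 to 1912 CPM in ARG1+ and 1429 to 1813 CPM in ARG1- libraries, with an interval of -0.026 to 0.30. A second table row named *Aldoa*, which lies next to the gene, held 63 counts in all and was not tested.

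In the later steps of the pathway *Pkm*, which encodes pyruvate kinase, was the most abundant member per length. It was at 2843, 2986, 2982, 3065 and 2673 CPM in the ARG1+ libraries of m2, m6, m234, m235 and m236. The ARG1- libraries had 2549, 2855, 2361, 2973 and 2722 CPM, with a log2 fold change of 0.11 (-0.054 to 0.28, FDR = 0.348). *Pgam1*, which encodes phosphoglycerate mutase, was at 174, 162, 154, 163 and 160 CPM in ARG1+ and 134, 135, 97.5, 147 and 150 CPM in ARG1- libraries. These groups did not overlap, and the log2 fold change of 0.29 ± 0.098 had an FDR of 0.0731, or 0.00894 with the block, and of 0.0383 without ARG1- m234. It also passed with DESeq2 without a block (adjusted p = 0.0371). *Ldha*, the lactate dehydrogenase of the lactate-forming step, was at 1129, 985, 1001, 1165 and 946 CPM in ARG1+ and 915, 873, 748, 1054 and 957 CPM in ARG1- libraries. The groups overlapped, 4 of 5 animals were higher, and the FDR of its log2 fold change of 0.20 was 0.175, or 0.0211 with the block. The block call of *Ldha* held in 3 of 5 fits without 1 animal and reached an FDR of 0.0956. *Gpi1*, *Tpi1*, *Pgk1* and *Eno1*, for the isomerase, triosephosphate isomerase, phosphoglycerate kinase and enolase steps, had log2 fold changes of 0.089 to 0.18 and an FDR of 0.167 to 0.406, and none passed with the block (0.052 to 0.213).

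*Gapdh* cannot be read as the expression of its gene in this table. It held 1573 counts over all 10 libraries (4.32 to 6.90 CPM), the lowest level per length of the enzymes after *Pfkm*, although it is the textbook housekeeping enzyme. Of its 50-base stretches, 78.3% occur in other annotated genes and 56.0% in more than 19 of them. Its 134 summed copies held 178539 counts, of which *Gm12070* alone held 83619. With the copies summed in, the log2 fold change was 0.065 (FDR = 0.553) in place of 0.12 (FDR = 0.627). Other enzymes have copies too. *Pgk1* shares 68.0% of its stretches, with *Pgk1-rs7* (76524 counts against 176056) as the main copy. *Eno1* shares 57.2%, with *Gm4735* (155611 against 267668), *Pgam1* 41.5%, with *Pgam1-ps1* (23621 against 43586), and *Pkm* 36.3%, with *Gm6560* (124594 against 817496). *Gpi1* shares 19.3% (*Gm1840*, 41764 counts), *Ldha* 15.3% (*Ldha-ps2*, 17714 counts), *Aldoa* 11.2% (*Gm5276*, 10313 counts) and *Tpi1* 6.83% (*Tpi-rs11*, 3439 counts). Summing the copies moved 1 call. *Pgam1* then passed, with a log2 fold change of 0.32 (FDR = 0.0477).

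**Figure D3:**
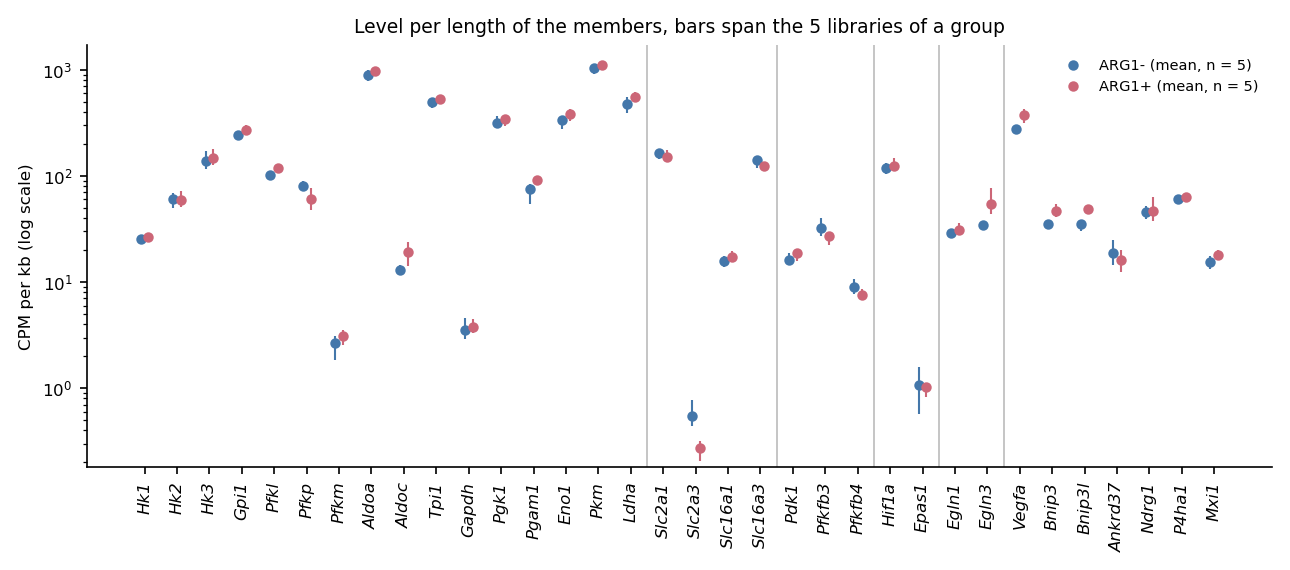
Mean level per length of the 34 members tested in ARG1- (blue) and ARG1+ (red) cells on a log scale, with bars from the lowest to the highest of 5 libraries and gray lines between roles. *Pkm* and *Aldoa* have the highest levels, and *Slc2a3*, *Epas1*, *Pfkm* and *Gapdh* are the 4 lowest.

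Of the 4 glucose and lactate transporters, 1 was lower and 3 did not pass the test, where 6.15% of all genes tested were lower. *Slc2a1*, which encodes the glucose transporter GLUT1, made up 99.8% ± 0.0435 of the CPM per kb of both glucose transporters in ARG1+ and 99.7% ± 0.108 in ARG1- cells. It was at 445, 511, 574, 476 and 437 CPM in the ARG1+ libraries of m2, m6, m234, m235 and m236 and at 470, 569, 515, 545 and 556 CPM in the ARG1- libraries. The groups overlapped and the log2 fold change was -0.12 (-0.30 to 0.062, FDR = 0.362). *Slc2a3* (GLUT3, chr6:122727809-122801640) was at 1.25, 0.81, 1.13, 1 and 1.21 CPM in ARG1+ and at 3.03, 1.75, 2.12, 1.90 and 2.07 CPM in ARG1- libraries. The groups did not overlap, and with a log2 fold change of -1.01 ± 0.199 (FDR = 0.00758) it was the 1 member past both limits. It held 458 counts in all, and its log2 fold change was -0.84 to -1.09 in the 15 fits without a library or an animal, with an FDR of at most 0.0311. The fold limit was missed without ARG1- m2, ARG1+ m6, ARG1+ m235, or both libraries of m2 or of m6, and with limma-trend or no filter on low counts. *Slc2a3* lay at the low level of some dendritic cell markers, such as *Flt3*, whose means were 0.289 CPM (ARG1+) and 3.63 CPM (ARG1-). Of the 7 such markers tested 5 were lower. *Clec9a* was not, with means of 13.9 CPM (ARG1+) and 11.8 CPM (ARG1-) and a log2 fold change of 0.28 (FDR = 0.547). The part of dendritic cells in the result of *Slc2a3* was not tested.

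The lactate exporter *Slc16a3* (MCT4) and the transporter *Slc16a1* (MCT1) held 87.8% ± 1.36 and 12.2% ± 1.36 of the summed CPM per kb in ARG1+ cells, and 90% ± 1.15 and 10% ± 1.15 in ARG1- cells. *Slc16a3* was at 583, 543, 549, 592 and 517 CPM in ARG1+ and 651, 644, 532, 688 and 644 CPM in ARG1- libraries of m2, m6, m234, m235 and m236. ARG1- m234 was the lowest of its group, and it was the 1 animal in which the ARG1+ library was not lower. The log2 fold change was -0.18 ± 0.0732 (FDR = 0.116, or 0.0205 with the block), and without ARG1- m234 it was -0.24 (FDR = 0.0252). The block call held in 1 of 5 fits without 1 animal, that without m234. *Slc16a1* (68.5 to 87.6 against 61.2 to 77.7 CPM) had a log2 fold change of 0.15 (-0.052 to 0.34, FDR = 0.306).

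**Figure D4:**
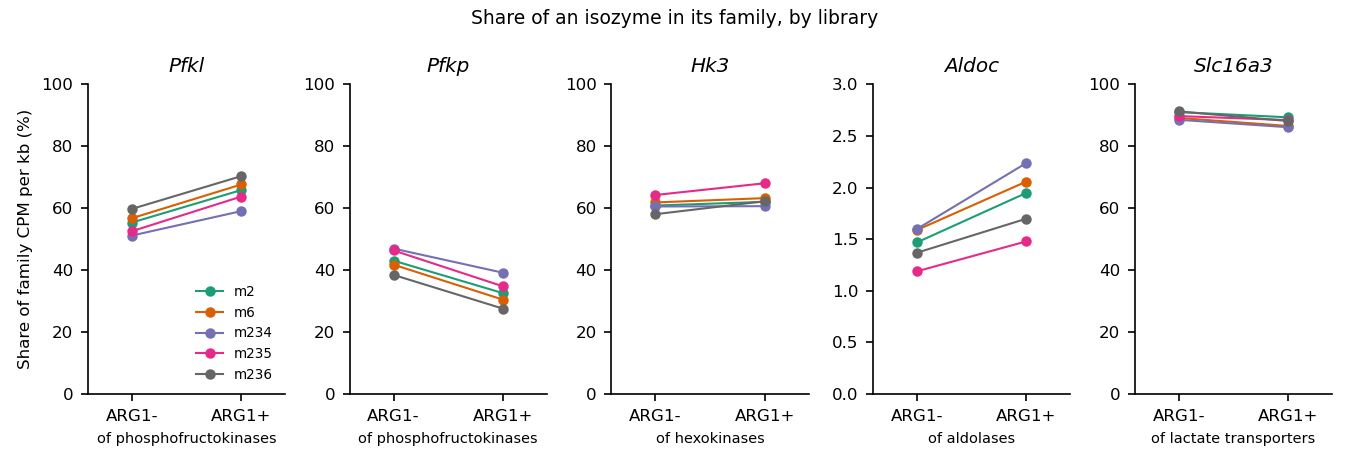
Share in percent of 5 isozymes in the summed CPM per kb of their family in each library, with lines that join libraries of an animal; the axis of *Aldoc* ends at 3%. *Pfkl* was higher and *Pfkp* lower in ARG1+ cells in all 5 animals. The share of *Hk3* was also higher and that of *Slc16a3* lower in all 5, by smaller steps, and the ranges of all 5 isozymes, *Aldoc* included, overlapped between the groups.

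All 3 regulators of glycolytic flux missed the FDR limit without the block and passed it with the block, 1 upward and 2 downward. With the block 16.8% of all genes tested were higher and 18.3% lower. *Pdk1*, the kinase that keeps pyruvate out of the mitochondrial dehydrogenase, was at 103, 98.9, 107, 82.7 and 97.6 CPM in ARG1+ and 86.8, 82.5, 97.0, 74.3 and 81.4 CPM in ARG1- libraries of m2, m6, m234, m235 and m236. Its log2 fold change was 0.22 ± 0.0813 (FDR = 0.0977, or 0.00128 with the block), with an FDR of 0.0388 without ARG1- m234 and 0.0348 without ARG1+ m235. *Pfkfb3* and *Pfkfb4* make fructose-2,6-bisphosphate, the activator of phosphofructokinase. *Pfkfb3* was at 124, 151, 161, 165 and 142 CPM in ARG1+ and 150, 166, 220, 179 and 168 CPM in ARG1- libraries, with a log2 fold change of -0.25 ± 0.104 (FDR = 0.134, or 0.00371 with the block). *Pfkfb4* was at 27.5, 24.9, 30.3, 26.4 and 23.9 CPM in ARG1+ and 31.3, 30.8, 37.1, 29.5 and 27.0 CPM in ARG1- libraries (-0.22 ± 0.0891, FDR = 0.121, or 0.00451 with the block). In each of the 3 genes the groups overlapped, and all 5 animals moved in the same direction. In the blocked fit all 3 calls held without each animal in turn, at an FDR of at most 0.028.

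Neither HIF alpha subunit passed the test at the transcript level. *Hif1a* held 99.2% ± 0.138 of the CPM per kb of the pair in ARG1+ and 99.1% ± 0.381 in ARG1- cells. Its levels were 805, 608, 689, 672 and 606 CPM in ARG1+ and 726, 609, 563, 721 and 584 CPM in ARG1- libraries of m2, m6, m234, m235 and m236. The groups overlapped, with a log2 fold change of 0.077 (-0.14 to 0.29, FDR = 0.643). *Epas1*, which encodes HIF-2α, was at 4.55 to 6.15 and 3.18 to 8.64 CPM (-0.082, interval -0.55 to 0.39, FDR = 0.835). HIF alpha is controlled mainly as a protein, which these libraries do not measure.

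Of the prolyl hydroxylases that mark HIF alpha, *Egln3* (PHD3, chr12:54178981-54203860) was higher and *Egln1* (PHD2) did not pass the test. *Egln3* was at 143, 134, 203, 116 and 123 CPM in the ARG1+ libraries of m2, m6, m234, m235 and m236 and at 83.0, 96.9, 93.3, 88.3 and 93.7 CPM in the ARG1- libraries. The groups did not overlap, ARG1+ m234 was the highest, and the log2 fold change of 0.66 ± 0.131 (1.58-fold, FDR = 0.00794) was the largest increase among the members. The FDR was 0.0514 without m2. *Egln1* was at 99.4 to 130 CPM in ARG1+ and 97.0 to 111 CPM in ARG1- libraries (0.11, -0.055 to 0.27, FDR = 0.363).

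Of the 8 other HIF targets, 3 were higher, none was lower and 4 did not pass the test, beside *Adm*, which was not tested. Of all genes tested 6.82% were higher and 6.15% lower. The summed level of the 8 targets was 1863 to 2369 CPM in ARG1+ and 1532 to 1774 CPM in ARG1- libraries, of which *Vegfa* made up most. *Vegfa* (chr17:46016993-46032369), the vascular growth factor, was at 1321, 1328, 1519, 1372 and 1117 CPM in the ARG1+ libraries of m2, m6, m234, m235 and m236. In the ARG1- libraries it was at 979, 1034, 895, 1055 and 915 CPM, below every ARG1+ library, and the log2 fold change was 0.45 ± 0.0842 (1.36-fold, FDR = 0.00599). The call held in all 15 fits without a library or an animal.

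The mitophagy receptors *Bnip3* and *Bnip3l* (NIX) moved together. *Bnip3* (chr7:138890836-138909519) was at 92.8, 84.5, 101, 75.8 and 77.9 CPM in ARG1+ and 62.3, 68.6, 65.2, 66.6 and 67.8 CPM in ARG1- libraries of m2, m6, m234, m235 and m236. *Bnip3l* (chr14:66985239-67008877) was at 167, 153, 152, 164 and 159 CPM in ARG1+ and 110, 121, 98.3, 124 and 127 CPM in ARG1- libraries. In neither gene did the groups overlap. The log2 fold change was 0.39 ± 0.0772 for *Bnip3* (FDR = 0.0081) and 0.45 ± 0.0699 for *Bnip3l* (FDR = 0.00216), the lowest FDR of all members. The FDR of *Bnip3* was 0.0603 without m2, and that of *Bnip3l* was at most 0.0233 in the 15 fits. Both share sequence with copies, *Bnip3* 20.7% (*Gm16439*, 8958 counts against 22194) and *Bnip3l* 24.4% (*Bnip3l-ps*, 9260 against 40458), and with copies summed the log2 fold changes were 0.38 (FDR = 0.01) and 0.47 (FDR = 0.00193). On the opposite strand *Gm45507* (7 counts) overlaps 27.2% of the exon bases of *Bnip3*. In reverse orientation *AC160336.1* (4880 counts) holds 42.4% of the stretches of *Bnip3*, and the sources used here do not say if reads were counted by strand.

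*Mxi1*, a repressor that opposes MYC, was at 125, 110, 121, 111 and 134 CPM in ARG1+ and 107, 99.6, 88.7, 94.4 and 118 CPM in ARG1- libraries. The groups overlapped, all 5 animals were higher, and the log2 fold change of 0.24 ± 0.0817 had an FDR of 0.0732, or 0.00274 with the block, and of 0.0303 without ARG1- m236. It also passed with DESeq2 without a block (adjusted p = 0.0443). *P4ha1*, a collagen prolyl hydroxylase, was at 247 to 280 and 237 to 261 CPM (0.081, -0.034 to 0.19, FDR = 0.327), and *Ndrg1*, a stress-response gene, at 108 to 184 and 114 to 149 CPM (0.036, -0.25 to 0.32, FDR = 0.882). *Ankrd37* was at 11.6 to 18.5 CPM in ARG1+ and 13.5 to 23.0 CPM in ARG1- libraries (-0.22, -0.57 to 0.14, FDR = 0.395). It was lower in 4 animals and higher in m234, and 20.1% of its exon bases overlap *Lrp2bp* and 6.15% *Ufsp2* on the opposite strand.

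The animals differed in how many members were higher in ARG1+ cells. Of the 34 members, 26 were higher in m2, 21 in m6, 30 in m234, 19 in m235 and 14 in m236, while 48.9 to 50.5% of all genes tested were higher in each animal. The median log2 ratio of the members ranged from -0.027 in m236 to 0.37 in m234. For the 16 glycolytic enzymes the counts were 15 (m2), 14 (m6), 15 (m234), 10 (m235) and 5 (m236). Members with a difference in the fit kept their sign in each animal. The ratio of *Vegfa* was 0.29 to 0.76, that of *Bnip3l* 0.32 to 0.63 and that of *Egln3* 0.39 to 1.12, each highest in m234. As given above, the ARG1- library of m234 was shallow and had the highest microglial marker sum, and the part of this in the ratios of m234 was not tested. Without both libraries of m234, 6 members were higher and 3 lower, and without the ARG1- library of m234 alone 8 were higher and 2 lower. The shares of all genes called in these refits are not given here.

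**Figure D5:**
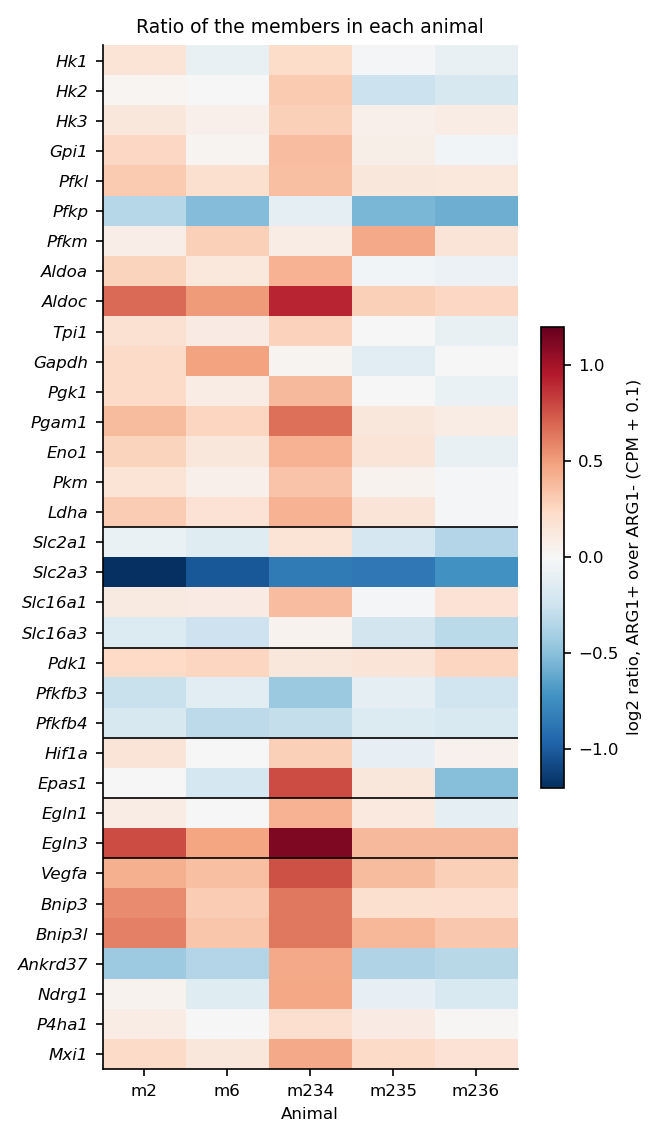
Log2 ratio of ARG1+ over ARG1- CPM (after adding 0.1 CPM) of each member tested in each animal, with black lines between roles; red is higher in ARG1+ cells and blue lower. The column of m234 is the reddest with 30 of 34 members above 0, that of m236 has 14, and *Pfkp*, *Slc2a3*, *Pfkfb3* and *Pfkfb4* are blue in all 5 animals.

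A further 55 genes of both pathways, listed from general knowledge but with earlier results of these data known, were examined in the same fit. Of 28 other glycolysis genes, 18 were tested, 1 was higher and 1 was lower, beside 6.82% and 6.15% of all genes tested. *Dlat*, a subunit of the pyruvate dehydrogenase complex, was at 41.7 to 53.2 CPM in ARG1+ and 36.4 to 44.9 CPM in ARG1- libraries (0.26 ± 0.0779, FDR = 0.0446). *Slc2a6*, a lysosomal hexose transporter, was at 38.8, 42.5, 39.8, 34.9 and 46.9 CPM in ARG1+ and 64.4, 63.6, 62.1, 65.3 and 79.5 CPM in ARG1- libraries, without overlap (-0.72 ± 0.0882, FDR = 5.13e-04). It moved in the same direction as *Slc2a3* at a far higher level. The muscle and testis isoforms *Pgam2* and *Gapdhs* did not pass the filter. The median log2 fold change of the 18 was 0.086.

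Of 27 other hypoxia genes, 24 were tested, 5 were higher and none was lower, beside 6.82% and 6.15% of all genes tested. The median log2 fold change of the 24 was 0.17. *Hilpda*, a HIF target that blocks lipolysis at lipid droplets, was at 225, 170, 148, 269 and 188 CPM in the ARG1+ libraries of m2, m6, m234, m235 and m236. The ARG1- libraries had 104, 86.2, 64.1, 129 and 110 CPM, without overlap, and its log2 fold change of 1.01 ± 0.189 (FDR = 0.00575) was above that of every member. *Gbe1* and *Gys1*, which branch and build glycogen, were higher by 0.43 ± 0.0751 (FDR = 0.00402) and 0.30 ± 0.0874 (FDR = 0.0418). The adenylate kinase *Ak4* was higher by 0.43 ± 0.121 (FDR = 0.0386) and the carbonic anhydrase *Car9*, at 1.77 to 4.12 CPM, by 0.59 ± 0.154 (FDR = 0.0283). In the 15 fits without a library or an animal, *Hilpda*, *Gbe1* and *Slc2a6* passed in all, *Car9* in 6, *Ak4* in 5, *Dlat* in 3 and *Gys1* in 2. With the animal block, 11 of the 24 hypoxia genes were higher and 2 were lower, where 16.8% and 18.3% of all genes were called. Both of the lower ones, named after their values were seen, act on HIF alpha and were lower in all 5 animals. *Vhl*, the ubiquitin ligase subunit that binds hydroxylated HIF alpha, was at 30.4 to 38.7 CPM in ARG1+ and 36.6 to 50.6 CPM in ARG1- libraries (-0.28 ± 0.0979, FDR = 0.0789, or 8.5e-04 with the block and 0.0445 with DESeq2). *Egln2*, the third prolyl hydroxylase gene (PHD1), was at 51 to 53.4 and 54.9 to 66.4 CPM, without overlap (-0.18 ± 0.0543, FDR = 0.0512, or 0.00849 with the block and 0.019 with DESeq2). With the block, 15 of the 42 genes tested over both lists were higher and 3 lower, and without it 6 were higher and 1 lower.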

How the data were processed

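Per the labels and the study's methods, the authors made strand-specific libraries, read 50 bases from 1 end, aligned them to GRCm38 with STAR 2.7.10b, as the submitters' processing notes give it, and counted reads on Ensembl genes with summarizeOverlaps in Union mode. The deposited table holds raw read counts per gene as whole numbers, and all 10 sample columns were used. The sources used here do not say if reads were counted by strand.

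Counts were tested with edgeR 4.0.16 (R 4.3.3, quasi-likelihood, TMM, no block), for genes above 1 CPM in at least 3 libraries, at a Benjamini-Hochberg FDR below 0.05, with 1 log2 unit as a further limit. Standard errors are the log2 fold change over the square root of F, and 95% intervals use the total degrees of freedom of the test. The study's methods name limma-trend, here an alternative beside DESeq2 1.42.0 and limma 3.58.1, other library sizes and filters, copies summed, the animal as a block, and libraries or animals left out. The fits were tested on simulated data. The same animal gave both libraries of a number, so the numbers pair them: residuals of the same animal had correlations across genes of 0.361 to 0.664, against at most 0.0675 between different animals. No pair of libraries of a group agreed within counting error (chi-square over its degrees of freedom from 14.2 to 57.1). In the smallest library 1 CPM is 8.4 counts. Without the block, p-values set the difference against the spread between libraries of a group and do not use the pairing. With the block, they set it against the spread of the difference within animals. Both cover only these 5 animals.

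Exon lengths, overlaps and shared 50-base stretches came from the GENCODE M21 basic annotation of the same build, coordinates from the table, and promoters from RefSeq. A copy was summed when it shared at least 25 stretches with the member. The members and lists were chosen with earlier results of these data known. Values in each library are given for members past an FDR of 0.05 with or without the block and for the most abundant of each role, and the other pathway genes named are those past it, at most 5 per direction and list. Further genes named as not tested, as markers or as copies (the largest of each member) are examples.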

Additional observations from a re-analysis of the deposited data

Results flagged for a closer look

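A sample was singled out when its gap to the nearest of the other 4 libraries of its group took up more than 0.71 of the group's range. Of 68 groups of 5 libraries (34 members in ARG1+ and in ARG1- cells), 2 held such a library, where chance gives about 1 in 20 groups, or 3.4. In ARG1- cells *Slc2a3* was at 3.03 CPM in m2, and the next library was at 2.12 CPM. In ARG1- cells *Slc16a3* was at 532 CPM in m234, the shallow library, and the next was at 644 CPM.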

How the results depend on the processing

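No called member changed its direction in any alternative, and of 930 refits of single members 829 kept direction and call, 54 gained a call, 27 lost it and 20 turned direction, the last in 4 uncalled members. With the replicate block, 11 members were higher and 5 lower, and of the other pathway genes 15 were higher and 3 lower. Members past both limits were 0 with limma-trend and with no filter on low counts. Higher members numbered 8 with DESeq2, which added *Pgam1* and *Mxi1*. Higher other pathway genes numbered 10 with DESeq2 and 3 with total counts, and lower ones 3 with DESeq2, 2 with DESeq2 size factors and 3 with total counts. Leaving out a library or an animal gave 2 to 8 higher and 1 to 3 lower members, 0 to 1 past both limits, and 2 to 6 higher and 1 to 2 lower other pathway genes. The lowest count of higher members, 2, came without m2. With the replicate block and an animal left out, chosen after seeing the data, 9 to 12 were higher and 4 to 7 lower. Shares over all genes are given here only for the fits of all libraries by edgeR with TMM, with and without the block. The counts of the other fits therefore do not show if the members changed more than the genes at large. Without division by length, *Hk3* held 51.8% (ARG1+) and 49.5% (ARG1-) of its family, *Pfkp* 47.0% (ARG1-) and *Aldoc* 3.04% and 2.33%. *Hk1* turned to -0.00096 with total counts and *Ndrg1* to -0.0039, and *Epas1* to 0.039 with limma-trend. Without a library or an animal, *Hk1* ranged from -0.0062 to 0.07, *Hk2* from -0.11 to 0.047, *Epas1* from -0.20 to 0.10 and *Ndrg1* from -0.10 to 0.10. With the block and an animal left out, *Hk1* reached -0.0063, *Hk2* 0.038 and 0.015, *Epas1* 0.10 and 0.017, and *Ndrg1* -0.10. The causes were not tested. The block changed 8 calls of members, all from not called to called. *Slc2a3*, *Epas1*, *Gapdh* and *Pfkm* rest on few counts.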
